A study of Mus musculus with 15 samples.

Results

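Retinoic acid, the acid form of vitamin A, is a small signalling molecule that enters the nucleus and binds receptors sitting on target genes. Retinol is taken up by cells, oxidised to retinal by alcohol and retinol dehydrogenases, oxidised again to retinoic acid by the retinaldehyde dehydrogenases, and cleared by the Cyp26 hydroxylases. In the heart the pathway is best known for patterning the embryonic chambers and for its source in the epicardium, the outer cell layer. The 9 genes described here cover these steps: Stra6, the cell surface receptor for the retinol carrier; Aldh1a1, Aldh1a2 and Aldh1a3, the retinaldehyde dehydrogenases; Cyp26a1 and Cyp26b1, the hydroxylases; Rarb, a retinoic acid receptor whose own gene is a textbook retinoic acid target; and Crabp1 and Crabp2, which bind retinoic acid in the cytosol. They were picked by name, 9 of the 18350 genes named on the array, and each had 1 probe.

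The study asked how chronic methamphetamine (meth) affects the hearts of male and female mice. RNA from whole hearts of 15 C57BL/6 mice, young adults at the start, was hybridised to Agilent arrays of 1 colour, 1 mouse to an array. There were 4 females and 4 males given meth by weekly injection for 5 months, raised to a final dose of 40 mg/kg, and 3 females and 4 males given phosphate-buffered saline (PBS) over the same 5 months. Of the 4 mice in a male group, 2 came from trial 1 and 2 from trial 2. By their titles all females were of trial 1, but the source label gives trial 2 for 3 of them (meth mice 3 and 4, PBS mouse 3).

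Spot intensities were taken to log2 and shifted so that 0 is the 75th percentile of each array, which is called the normalized log2 signal below. A probe was tested if it was well above background on at least 3 arrays, which 28357 probes were, and a gene is said to rise, fall or pass when its limma p, adjusted over all these probes by Benjamini-Hochberg, was under 0.05. The arrays lay on 4 slides. The trial 1 males and the first females shared slides 1 and 2, the trial 2 males were alone on slide 3, and slide 4 held the 3 females with conflicting labels. Arrays of slides 1 to 3 had a 75th percentile intensity of 307 to 403, those of slide 4 one of 438 to 589, and the share of probes well above background ran from 61.3% to 71.4%. Markers of ventricular heart muscle were present on every array. Markers of airway epithelium, summed over the list in units of the 75th percentile signal, were 33.1 to 169 in male meth hearts, 0.568 to 0.654 in male PBS hearts, 1.18 to 3.93 in female meth hearts and 1.66 to 3.11 in female PBS hearts.

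The sequences below are shown because they are the matches, among the members' promoters, to the element through which retinoic acid receptors act. RefSeq promoter windows (GRCm38.p6, 250 bases before to 50 bases after a transcript start) were at hand for 7 members, 11 windows in all. Both strands were searched for a receptor core hexamer followed on the same strand by another after any 5 bases, the hexamers being AGGTCA and its variant AGTTCA as well as GGGTCA and its variant GGTTCA. Rarb and Cyp26a1 held 1 match each, and 2 of the 11 member windows matched against 32 of all 32851 windows (0.0974%). With 2 or 1 bases between the hexamers, 0 member windows matched, against 0.268% and 0.222% of all windows. The Rarb stretch is chr14:16575507-16575535 on the minus strand, and its match lies 53 to 37 bases before a transcript start inside the Rarb gene (chr14:16430839-17082331). The Cyp26a1 stretch is chr19:37697770-37697798 on the plus strand, 32 to 16 bases before 1 transcript start and within the span of the gene (chr19:37697738-37701536), and there the repeat reads on the opposite strand. Each is printed on the strand of its gene with the 17 bases of the match in capitals and 6 bases on each side. A match is a description of the letters and not a measured site.
Rarb: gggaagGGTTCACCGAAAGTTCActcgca
Cyp26a1: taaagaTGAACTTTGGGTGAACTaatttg

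Of the 9 members, 6 were well above background on all 15 arrays and 7 were tested. After meth, 1 of the 7 (Aldh1a1) passed in males, where 1.11% of all tested probes passed, and 0 of the 7 passed in females, where 0.758% did. At an unadjusted p under 0.05 there were 2 in females (Cyp26b1 and Aldh1a1), where 11% of all probes were, and 1 in males (Aldh1a1), where 12.8% were. The meth and PBS arrays did not overlap for 2 of the 7 in females (Cyp26b1 and Aldh1a1) against 9.07% of all probes, and for 2 in males (Aldh1a1 and Aldh1a3) against 9.86%. The median log2 fold change of the 7 was -0.26 in females and 0.059 in males, beside 0.00064 and -0.032 over all probes.

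**Figure D1:**
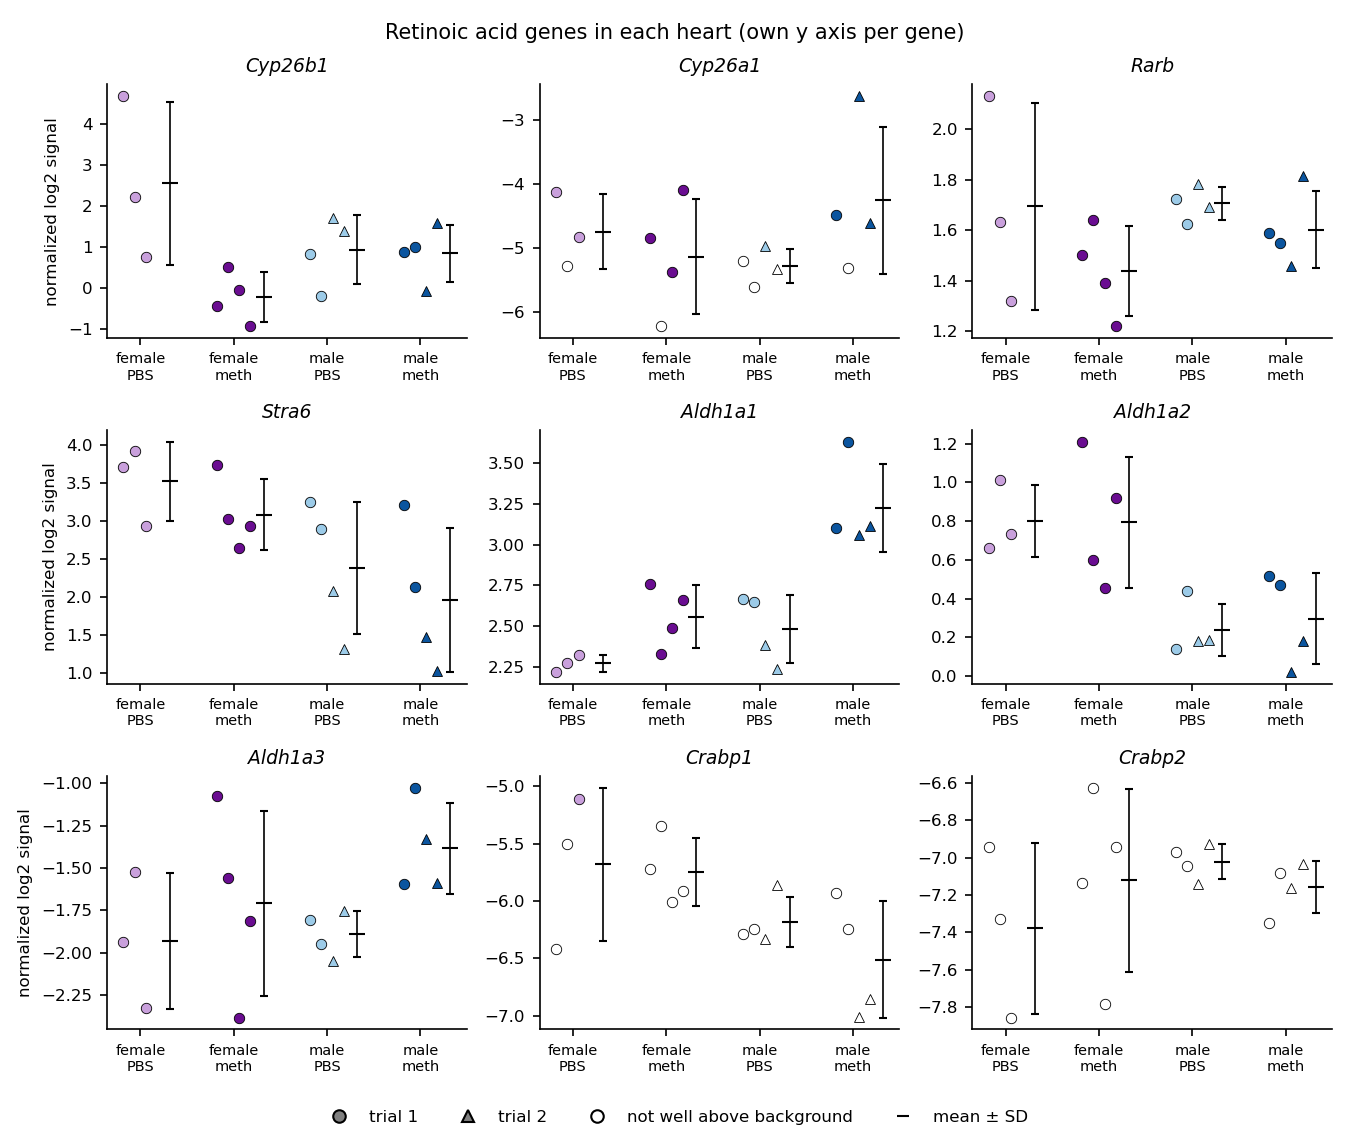
Normalized log2 signal (y axis, own range for each gene) of the 9 genes in each of the 15 hearts, by sex and treatment; circles are trial 1, triangles trial 2, open symbols are not well above background, and bars are mean ± SD. Aldh1a1 is highest in all 4 male meth hearts, Cyp26b1 is highest in 2 female PBS hearts, Stra6 is lowest in the trial 2 males, and Crabp2 is above background nowhere.

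Aldh1a1 (probe A_51_P334942, chr19:20492583-20643463) makes retinoic acid from retinal and was the 1 member that rose after meth. Its normalized log2 signals were 3.10 and 3.63 in the trial 1 male meth hearts, 3.06 and 3.11 in the trial 2 male meth hearts, 2.66 and 2.65 in the trial 1 male PBS hearts, and 2.38 and 2.23 in the trial 2 male PBS hearts. All 4 male meth hearts lay above all 4 male PBS hearts. The male log2 fold change was 0.75 (standard error 0.12, 95% interval 0.49 to 1.00, limma adjusted p = 0.00922), which is 1.68-fold, and the exact two-sided permutation p of 0.0286 is the smallest that 4 against 4 can give. In females the signals were 2.76, 2.32, 2.49 and 2.66 after meth and 2.22, 2.27 and 2.32 after PBS. The female arrays did not overlap either, but the closest pair both read 2.32, and the log2 fold change of 0.29 (standard error 0.12) did not pass (limma adjusted p = 0.409). The exact permutation p in females was 0.0571.

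Averaged over the sexes, Aldh1a1 rose by 0.52 (standard error 0.08, limma adjusted p = 0.00812), the 1 member of 7 that passed where 2.65% of all probes did. The male response exceeded the female one by 0.46 (95% interval 0.088 to 0.83), and this difference did not pass (limma adjusted p = 0.512). 0 of the 7 members passed for a difference between the male and female responses, as 0.138% of all probes did, with 2 members, and 8.67% of all probes, at an unadjusted p under 0.05. The order of the group means was male meth (3.23 ± 0.27, SD, n = 4), female meth (2.56 ± 0.19, n = 4), male PBS (2.48 ± 0.21, n = 4) and female PBS (2.27 ± 0.05, n = 3). Female meth and male PBS hearts overlapped, as did male PBS and female PBS hearts.

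Within the slides, the male meth minus PBS difference in Aldh1a1 was 0.44 on slide 1, 0.98 on slide 2 and 0.78 on slide 3, and the female difference was 0.54, 0.054 and 0.25 on slides 1, 2 and 4. Within trial 1 the male log2 fold change was 0.71 (limma adjusted p = 0.148) and within trial 2 it was 0.78 (limma adjusted p = 0.0992). When same-numbered meth and PBS arrays, which shared a slide, were paired as a replicate block, the male value stayed 0.75 and its limma adjusted p was 0.0513, so the call was lost. It was also lost with another background correction, with the male arrays alone and with the trial 1 arrays alone. The methods' t-test called Aldh1a1 in males at an unadjusted p under 0.05, paired and unpaired. After Benjamini-Hochberg it did not pass by that test. There the paired form passed 0 of all probes and the unpaired form 15 higher and 3 lower, so the loss is not particular to Aldh1a1. The call was kept without any 1 of the 15 arrays.

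Marker sums of some other cell types moved with Aldh1a1 in males. Of the 9 airway epithelium markers tested, 8 rose in male meth hearts, beside 1.11% of all tested probes. The 4 male meth arrays can meet the filter of 3 arrays alone. A marker high only there was thus tested because it was high, and the count is a description. In male PBS hearts 6 of the 10 airway markers on the array were above background on no array, so the size of the rise is not given. The heart with the highest Aldh1a1 (male meth, trial 1 replicate 2) also held the highest airway sum, 169, and the highest sums of all arrays for epicardium and mesothelium (13.4), white fat (54.9), brown fat (75.7), red blood cells (746) and atrial muscle (1314). The sum of the epicardium and mesothelium markers was 8.58 to 13.4 in male meth hearts and 5.21 to 7.29 in male PBS hearts. In males 10 of 10 fold changes were positive and 1 passed, that of the keratin Krt18 (limma adjusted p = 0.0174). The largest log2 fold changes of the list were those of its keratins, Krt8 (1.03), Krt18 (0.93) and Krt19 (0.76). Wt1 and Tbx18 of the same list did not pass (limma adjusted p = 0.423 and 0.739). Cartilage marker sums were 6.02 to 24.7 in male meth and 3.52 to 4.25 in male PBS hearts, and liver marker sums 3.36 to 4.64 and 2.14 to 2.50. In each list 0 of 4 tested markers passed and 2 of 4 fold changes were positive. The median log2 fold change was 0.019 for cartilage and -0.015 for liver. White fat sums overlapped in males. In females the airway, epicardial and cartilage sums overlapped between meth and PBS. Of the 9 tested airway markers, 1 (Bpifa1) rose in females (limma adjusted p = 0.0112), beside 0.758% of all probes, and 8 fold changes were positive. Female liver sums were 4.36 to 6.86 after meth and 3.03 to 4.12 after PBS. However, 1 of the 4 tested liver fold changes was positive, with a median of -0.53. White fat sums were 14.98 to 25.5 after meth and 6.67 to 10.1 after PBS, with 4 of 4 fold changes positive. In the liver and white fat lists 0 of 4 tested markers passed. The part of these cells in the Aldh1a1 result was not tested. In whole heart RNA, more cells of a type and more RNA per cell cannot be told apart.

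**Figure D2:**
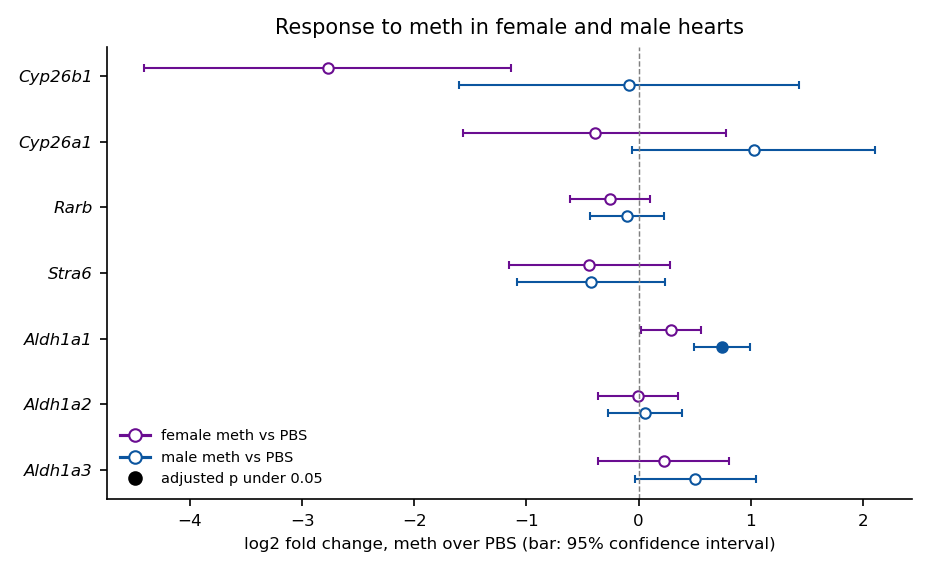
Log2 fold change of meth over PBS (x axis) with its 95% confidence interval for the 7 tested genes (y axis), females in purple and males in blue; a filled point has a limma adjusted p under 0.05. Aldh1a1 in males, at 0.75, is the filled point, and Cyp26b1 in females, at -2.77, is the farthest from 0 and has the widest interval.

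The gene whose signal followed Aldh1a1 most closely over the 15 arrays was Gdf10 (Pearson r = 0.983, Spearman rho = 0.964), a secreted factor of the bone morphogenetic protein family. Slc43a1, an amino acid transporter, had r = 0.91 and rho = 0.896. Cyp2f2 (r = 0.921, rho = 0.661) and Scgb3a1 (r = 0.917, rho = 0.675), both genes of airway secretory cells, followed it less closely by rank. They are among the top 5 of 12618 genes compared. For deviations from the group means r was 0.922 for Gdf10, 0.788 for Slc43a1, 0.777 for Cyp2f2 and 0.71 for Scgb3a1. These are descriptions over arrays that share sex, treatment and slide.

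Aldh1a2 (probe A_52_P58145), the retinaldehyde dehydrogenase of the embryonic heart and epicardium, did not respond detectably to meth. Its signals in females were 1.21, 0.60, 0.45 and 0.92 after meth and 0.66, 1.01 and 0.73 after PBS. In males they were 0.51, 0.47, 0.02 and 0.18 after meth and 0.14, 0.44, 0.18 and 0.19 after PBS. Meth and PBS overlapped in each sex, whereas the 3 female PBS hearts all lay above the 4 male PBS hearts. The log2 fold change was -0.0083 in females (95% interval -0.36 to 0.35, limma adjusted p = 0.994) and 0.059 in males (95% interval -0.27 to 0.39, limma adjusted p = 0.913). The male minus female log2 difference, adjusted for trial, was -0.44 in PBS hearts (standard error 0.18, limma adjusted p = 0.278) and -0.37 in meth hearts (limma adjusted p = 0.263), and neither passed. Between the plain group means it was -0.57 and -0.50.

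Aldh1a3 (probe A_52_P87843, chr7:66390892-66427477), the third enzyme of the step, was dimmer but above background on every array. In males its signals were -1.59, -1.02, -1.33 and -1.59 after meth and -1.81, -1.95, -2.05 and -1.75 after PBS. All 4 male meth hearts lay above the male PBS hearts, and the log2 fold change was 0.50 (standard error 0.25, limma adjusted p = 0.426, exact permutation p = 0.0286). In females the signals ran from -2.38 to -1.07 after meth and from -2.33 to -1.52 after PBS and overlapped, with a log2 fold change of 0.22 (limma adjusted p = 0.857). Neither value passed. The genes closest to Aldh1a3 over the arrays were Ptprf (r = 0.924), Gpc3 (r = 0.919), Atl3 (r = 0.906), Sox17 (r = 0.9) and Cd9 (r = 0.899).

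Cyp26b1 (probe A_51_P501844, chr6:84571414-84593908) breaks retinoic acid down and was the member with the widest spread. In females its signals were -0.43, 0.52, -0.04 and -0.93 after meth and 4.68, 2.22 and 0.76 after PBS. All 3 female PBS hearts lay above all 4 female meth hearts, and among the PBS hearts the first was far above the others. The female log2 fold change was -2.77 (standard error 0.75, 95% interval -4.41 to -1.13), a signal lower by a factor of 6.83, rank 7 by size among the tested probes. It did not pass (limma adjusted p = 0.129), and the exact two-sided permutation p was 0.0286, the smallest that 4 against 3 can give. Within slides the meth minus PBS difference was -5.11 on slide 1, -1.69 on slide 2 and -1.25 on slide 4.

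The female Cyp26b1 value depended on which PBS hearts were in the fit. Without female PBS replicate 1 the log2 fold change was -1.71 (limma adjusted p = 0.332), and without female PBS replicate 3, the lowest of the PBS hearts, it was -3.67 and passed (limma adjusted p = 0.0449). With the replicate block, which leaves out female meth replicate 4 because it has no PBS partner, it was -2.54 (limma adjusted p = 0.251).

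In males the Cyp26b1 signals were 0.89, 1.00, -0.08 and 1.60 after meth and 0.83, -0.19, 1.71 and 1.40 after PBS. The male groups overlapped throughout, and the log2 fold change was -0.086 (95% interval -1.60 to 1.43, limma adjusted p = 0.976). It was 0.62 within trial 1 and -0.79 within trial 2, so the sign differed between the trials, and neither passed. The male minus female response was 2.69 (95% interval 0.45 to 4.92, unadjusted p = 0.0222 in the limma fit) and did not pass after adjustment (limma adjusted p = 0.532). Averaged over the sexes the log2 fold change was -1.43 (limma adjusted p = 0.19). The group means ran from female PBS (2.55 ± 1.98, SD, n = 3) through male PBS (0.94 ± 0.84, n = 4) and male meth (0.85 ± 0.69, n = 4) to female meth (-0.22 ± 0.61, n = 4), and each neighbouring pair overlapped.

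In female hearts the summed signal of the alveolar lung cell markers was, like Cyp26b1, lower after meth than after PBS. The sum was 0.311 to 0.884 after PBS and 0.121 to 0.154 after meth, in the units above. Of the 3 tested markers 1 (Sftpc) fell, beside 0.758% of all probes. The fold change of 1 other (Sftpa1) was positive. Of the 5 alveolar markers on the array, 3 were above background on no female meth array and 2 on no female PBS array. The highest alveolar sum was in female PBS replicate 2 and the highest Cyp26b1 in replicate 1. White fat markers went the other way in females, with sums of 14.98 to 25.5 after meth and 6.67 to 10.1 after PBS. In males Cyp26b1 overlapped between the groups, and the alveolar sums were 0.111 to 0.402 after meth and 0.0377 to 0.0527 after PBS. There 2 of the 3 tested markers rose, beside 1.11% of all probes. None of the 5 markers was above background on a male PBS array, and male meth arrays alone can meet the filter. The part of these cells in the Cyp26b1 values was not tested.

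Cyp26a1 (probe A_52_P382149), the other hydroxylase and a classical retinoic acid target, was close to background. It was well above background on 3 of 4 female meth, 2 of 3 female PBS, 3 of 4 male meth and 1 of 4 male PBS arrays. Its signals in males were -4.48, -5.31, -2.62 and -4.61 after meth and -5.21, -5.60, -4.97 and -5.34 after PBS. A single heart, the first of trial 2, stood above the rest, and the groups overlapped. The log2 fold change was 1.02 in males (standard error 0.50, limma adjusted p = 0.421) and -0.39 in females (standard error 0.54, limma adjusted p = 0.88), and signals not well above background enter both values.

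Rarb (probe A_51_P202440, spotted 10 times on each array) is the receptor among the members. Its signals were 1.50, 1.64, 1.39 and 1.22 in female meth, 2.13, 1.63 and 1.32 in female PBS, 1.59, 1.55, 1.46 and 1.81 in male meth, and 1.73, 1.63, 1.78 and 1.69 in male PBS hearts. The groups overlapped within each sex. The log2 fold change was -0.26 in females (95% interval -0.61 to 0.099, limma adjusted p = 0.636) and -0.10 in males (95% interval -0.43 to 0.22, limma adjusted p = 0.834).

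The Rarb signal followed that of Cyp26b1 from heart to heart. Over the 15 arrays r was 0.84 and rho 0.743, and Rarb was the third most alike of 12618 genes to Cyp26b1, after 4930581F22Rik (r = 0.848) and Cd38 (r = 0.841), an enzyme that consumes NAD. In the other direction Cyp26b1 was the second most alike gene to Rarb, after Limk2 (r = 0.894) and before Ccdc47 (r = 0.838), Tcf15 (r = 0.836) and Bcl7a (r = 0.835). The next most alike to Cyp26b1 were Ceacam1 (r = 0.83) and Abcc4 (r = 0.805). Female PBS replicate 1 was the highest heart for both genes and female meth replicate 4 the lowest for both. Without these 2 arrays, the farthest from the Cyp26b1 median, r fell to 0.571. The r of the deviations from the group means was 0.921. These values describe arrays that share slides and groups, and the pair was singled out from its rank.

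**Figure D3:**
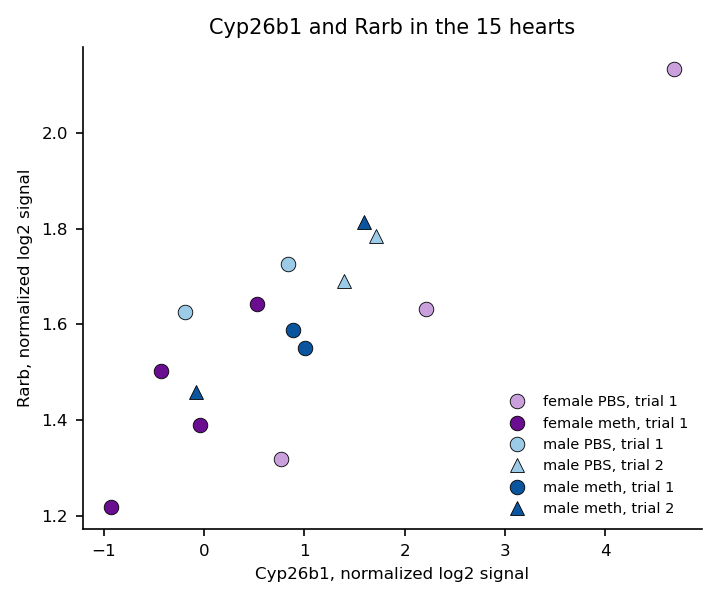
Normalized log2 signal of Cyp26b1 (x axis) and of Rarb (y axis) in each of the 15 hearts, coloured by sex and treatment, with circles for trial 1 and triangles for trial 2. The hearts rise together from female meth replicate 4 at -0.93 and 1.22 to female PBS replicate 1 at 4.68 and 2.13, with r = 0.84 over all arrays and 0.571 without these 2.

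Stra6 (probe A_51_P471177, chr9:58063793-58154004), the retinol uptake receptor of the cell surface, differed between the male trials. Its signals in males were 3.20 and 2.13 after meth and 3.24 and 2.89 after PBS in trial 1, and 1.47 and 1.02 after meth and 2.08 and 1.31 after PBS in trial 2. All 4 trial 1 males lay above all 4 trial 2 males, and the trial 2 minus trial 1 log2 difference was -1.40 (standard error 0.30, limma adjusted p = 0.0239), a signal lower by a factor of 2.63. 1 of the 7 tested members passed in this comparison, as did 5.31% of all probes. The trial 2 arrays were alone on slide 3 and in their scan session, so trial and slide cannot be told apart. The call was lost with another background correction and without any 1 of 4 arrays: male meth replicate 1 and male PBS replicate 1 of trial 1, and male meth replicate 2 and male PBS replicate 2 of trial 2, with limma adjusted p from 0.0621 to 0.0879. Without male meth replicate 1 of trial 1, Aldh1a1 passed between the trials in its place. White fat markers summed to 9.09 to 54.9 in the trial 1 males and 5.74 to 17.5 in the trial 2 males, with overlap, and 0 of 4 tested markers passed. Brown fat sums were 38.7 to 75.7 and 27.0 to 37.4, without overlap, and 1 of 3 tested markers (Elovl3) was lower in trial 2. Endocardial and macrophage sums were also lower in all trial 2 males, and smooth muscle sums higher. The part of these cells in the Stra6 difference was not tested.

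With meth, Stra6 had a log2 fold change of -0.43 in males (95% interval -1.09 to 0.24, limma adjusted p = 0.612) and -0.44 in females (95% interval -1.15 to 0.28, limma adjusted p = 0.714). The female signals were 3.73, 3.01, 2.63 and 2.93 after meth and 3.70, 3.92 and 2.93 after PBS and overlapped. Within male trials 1 and 2 the response was -0.40 and -0.45. The male means lay below the female means by more than the trial-adjusted fit gives. The male minus female difference of the group means was -1.14 in PBS hearts and -1.12 in meth hearts, and neither passed without the trial term (limma adjusted p = 0.412 and 0.219). With the trial term, which sets the males to trial 1 and takes all females as trial 1, it was -0.44 (limma adjusted p = 0.583) and -0.42 (limma adjusted p = 0.525). With the trial of the source label, -1.12 in meth hearts passed (limma adjusted p = 0.035) and -0.96 in PBS hearts did not (limma adjusted p = 0.139). That label puts some females in trial 2, which by the study's account held males only. Srrm3 (r = 0.977), Ing5 (r = 0.972), L3mbtl2 (r = 0.968), Gabbr2 and Pdia5 (both r = 0.956) followed Stra6 most closely over the arrays.

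**Figure D4:**
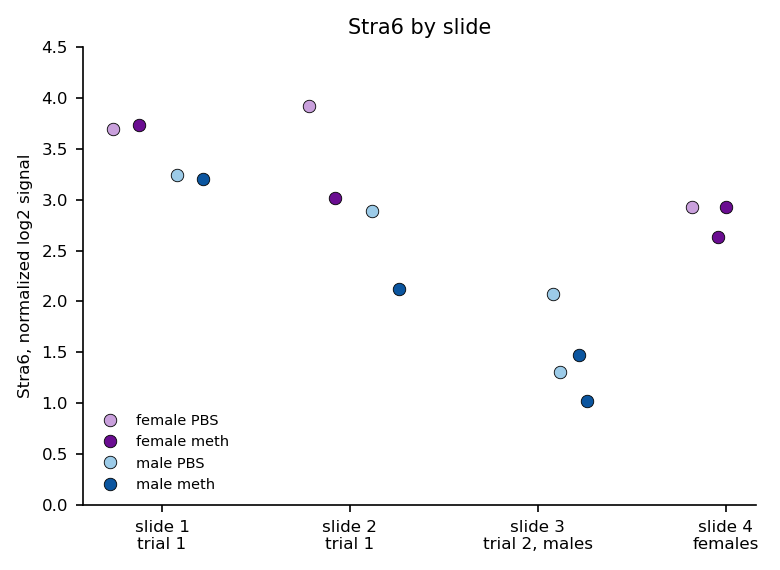
Normalized log2 signal of Stra6 (y axis) in each heart by the slide its array lay on (x axis), coloured by sex and treatment. The 4 trial 2 males on slide 3 lie between 1.02 and 2.08, below the trial 1 males on slides 1 and 2, and the females of slides 1, 2 and 4 lie between 2.63 and 3.92.

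The cytosolic binding proteins were at the limit of the arrays. Crabp1 (probe A_52_P185907) was well above background on 1 of 15 arrays, a female PBS heart, and Crabp2 (probe A_51_P521283) on 0 of 15. Neither was tested, and no fold change is given for them. Crabp1 and Crabp2 had normalized log2 signals of -7.01 to -5.12 and of -7.86 to -6.62 over the 15 arrays.

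Between the sexes, Aldh1a1 was the 1 member of 7 that differed in meth hearts, where 2.62% of all probes did. All 4 male meth hearts lay above all 4 female meth hearts. The group means differed by 0.67, a factor of 1.59 (limma adjusted p = 0.0247 without the trial term), and the trial-adjusted difference was 0.83 (standard error 0.13, limma adjusted p = 0.00596). This call was lost with another background correction, with the trial 1 arrays alone and without slide 4. In PBS hearts the Aldh1a1 means differed by 0.21 (limma adjusted p = 0.63 without the trial term), and the trial-adjusted difference was 0.37 (standard error 0.14, limma adjusted p = 0.238). 0 of the 7 members passed between PBS hearts, as 0.48% of all probes did, with 3 (Cyp26b1, Aldh1a1 and Aldh1a2), and 15.2% of all probes, at an unadjusted p under 0.05. The trial-adjusted Cyp26b1 difference was -1.88 in PBS hearts (95% interval -3.68 to -0.073, limma adjusted p = 0.313) and 0.81 in meth hearts (limma adjusted p = 0.6), and the means differed by -1.62 and 1.07.

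Other genes of the pathway were counted over 5 lists, 62 genes in all, of which 60 were on the array and 43 were tested. Adh1, an alcohol dehydrogenase that oxidises retinol to retinal, was the 1 gene of the 43 that passed after meth in males, where 1.11% of all probes passed, and the 1 that passed averaged over the sexes, where 2.65% did. In females 0 of the 43 passed, beside 0.758% of all probes. At an unadjusted p under 0.05 there were 5 in females, 8 in males and 11 averaged over the sexes. Of all probes 11%, 12.8% and 15.3% were. The median log2 fold change of the 43 was 0.065 in females and -0.0021 in males. Adh1 signals in males were 2.50, 2.76, 2.26 and 2.33 after meth and 1.87, 1.77, 1.50 and 1.63 after PBS, without overlap. The male log2 fold change was 0.77 (standard error 0.09, limma adjusted p = 0.00163). Within trials 1 and 2 it was 0.81 and 0.73 (limma adjusted p = 0.0335 and 0.0518 in a fit of all arrays). The male call was lost with the trial 1 arrays alone (limma adjusted p = 0.104). It was also lost by the methods' t-test after Benjamini-Hochberg, where 0 of all probes passed paired and 15 higher and 3 lower unpaired. In females Adh1 was 2.27, 2.07, 1.87 and 2.03 after meth and 1.61, 1.78 and 1.74 after PBS, also without overlap, with a log2 fold change of 0.35 (limma adjusted p = 0.154). The male minus female response was 0.43 and did not pass (limma adjusted p = 0.435), and the male and female meth hearts overlapped. Their means differed by 0.41, which did not pass without the trial term (limma adjusted p = 0.0946). The trial-adjusted difference of 0.55 passed (limma adjusted p = 0.0153), a call also lost with normexp background correction, with the trial 1 arrays alone, without slide 4 and without male meth replicate 2 of trial 1, with limma adjusted p from 0.0546 to 0.115. Adh1 was highest in the same male meth heart as Aldh1a1 and the airway markers, and the part of airway cells in it was not tested.

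**Figure D5:**
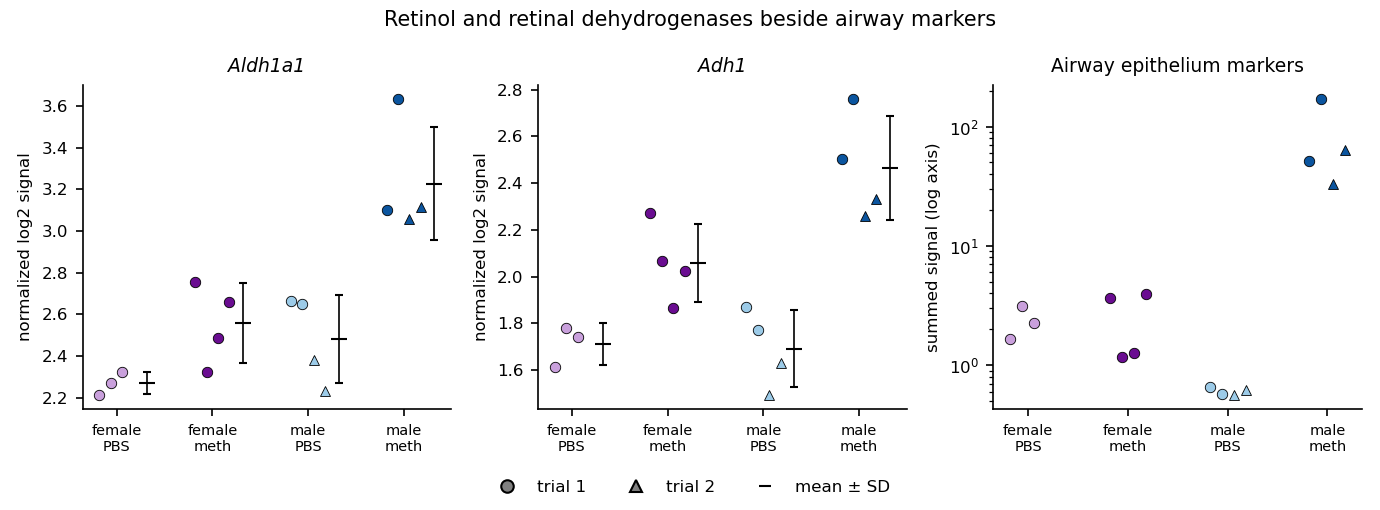
Normalized log2 signal of Aldh1a1 and Adh1 and, on a log axis, the summed signal of the airway epithelium markers (units of the 75th percentile signal) in each heart by sex and treatment; circles are trial 1, triangles trial 2, and bars are mean ± SD. In all 3 panels the 4 male meth hearts lie above the 4 male PBS hearts, and the airway sums run from 33.1 to 169 there against 0.568 to 0.654.

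By role, 0 of the 5 tested genes of retinol uptake, storage and transport passed in either sex. The largest values there were Rbp7, a retinol binding protein of fat and blood vessels, at 0.65 in females (limma adjusted p = 0.0588), and Rbp4, the retinol carrier of the blood, at 0.76 in males (limma adjusted p = 0.239). Among the 14 tested enzymes that interconvert retinol and retinal, 1 (Adh1) passed in males, and the largest female value was that of Rdh5, a retinol dehydrogenase, at -0.54 (limma adjusted p = 0.31). Adh7, another retinol dehydrogenase, had a male log2 fold change of 1.67 (limma adjusted p = 0.189), but it was above background on 3 arrays, all male meth. 0 of the 4 other genes of retinal oxidation and retinoic acid breakdown passed with meth. The largest was Aldh1a7, a close relative of Aldh1a1, with 0.92 in females, 1.48 in males and 1.20 averaged over the sexes (limma adjusted p = 0.46, 0.119 and 0.0506). 0 of the 8 other binding proteins and receptors and 0 of the 14 other retinoic acid target genes passed with meth. The median log2 fold change was 0.053 in females and -0.049 in males for the first list and 0.069 and 0.084 for the targets. The largest value of the first list was that of Ppard, a nuclear receptor, but its probe was above background on 0 of 8 male and 3 of 7 female arrays, and no fold is given. The target gene farthest from 0 when averaged over the sexes was Rarres1, at -0.39 (limma adjusted p = 0.0513), and it was also the largest in females, at -0.51 (limma adjusted p = 0.134).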

How the data were processed

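The authors labelled heart RNA with Cy3 and extracted background-subtracted spot intensities with Agilent Feature Extraction (10.5.1.1 per the file headers, 9.1 in the submitters' processing notes). No normalization between arrays was applied to the deposited intensities. A deposited table of the authors' log2 values equals the log2 intensity plus a constant for each array and was used as an alternative. Its 75th percentile was 8.39 to 8.40 on all arrays, so it is nearly the same shift as the one used here and could change little.

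Control spots were left out, outlier spots set to missing, repeat spots averaged as log2 intensities, and each array shifted by its 75th percentile. Of 41174 probes, the 28357 that at least 3 of the 15 arrays measured well above background were tested by limma 3.58.1 under R 4.3.3, in 1 linear model of the 4 groups plus trial with moderated variances (eBayes), two-sided, Benjamini-Hochberg over all probes, threshold 0.05. Each array is 1 mouse, and precision is limited by their number. Probes were named through RefSeq accessions (26918 probes, 18350 genes). Exact permutation tests were two-sided. Python 3.11.15 with matplotlib 3.10.9 made the plots. The genes named are the 9 members, and other genes were named as the largest of a list, as passing, or among the 5 most alike to a member (highest r over genes above background on all arrays). Some genes that this rule names are not reported here. The members, lists and tests were chosen with earlier results of these data known.

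On data simulated from the real arrays, with 200 probes changed by a log2 value of 1, the fit called 76% of them in the female and 81% in the male comparison and 53% for the difference between the sexes, and 95.5%, 94.5% and 85% at a log2 value of 2. Of the calls, 3.57% to 6.19% were false. The noise was drawn independently for each array, without the likeness of arrays on a slide. These rates average over all probes and do not hold for a probe of wide spread such as that of Cyp26b1.

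Replicate numbers were checked as pairs through how alike 2 same-numbered arrays departed from the means of their groups, over 23807 probes. The correlation was 0.3, 0.437 and 0.664 in females and 0.257 to 0.403 in males, and same-numbered arrays shared a slide. Within a male trial it was -0.0852 and 0.00994. Each pooled value being above 0.1, the numbers were taken as pairs for the replicate block. In males the pooled value also holds the difference between the trials, and within a trial no likeness above 0.1 was seen. Alternatives were normexp background correction (offset 50, on median pixel signals), quantile normalization, a median shift, a floor on low signals, other filters, the authors' log2 table, no trial term, the trial of the other label, slide and replicate blocks, subsets of arrays and the methods' t-test.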

Additional observations from a re-analysis of the deposited data

Results flagged for a closer look

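Over 21 sets of 4 arrays (7 genes in 3 groups), 2 held a heart far from the other 3, where chance alone gives about 1 in 20. In male meth hearts, Aldh1a1 was 3.63 in trial 1 replicate 2 and 3.06 to 3.11 in the others, a gap of 0.905 of the range of the group. In male PBS hearts, Aldh1a2 was 0.44 in trial 1 replicate 2 and 0.14 to 0.19 in the others, a gap of 0.845 of the range. The Aldh1a1 call in males was kept without that meth heart.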

How the results depend on the processing

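Of 901 alternative values of 31 gene results, 861 kept their direction and their side of the threshold, 25 lost and 2 gained a call, and 13 changed sign. Most of the 31 results were not called in the main fit and had no call to lose. The 25 losses fell on calls of Aldh1a1, Adh1 and Stra6. The Aldh1a1 call in males was lost in 6 of 31 alternatives, and the Adh1 call averaged over the sexes in 0 of 28. The count of members passing in males went from 1 to 0 with normexp background correction, with the replicate block, with 1 sex only and with the trial 1 arrays only. It also did so by the methods' t-test after Benjamini-Hochberg, paired or unpaired. Averaged over the sexes it went from 1 to 0 with normexp, with trial 1 only and without slide 4 (an alternative chosen after seeing the data). Between male and female meth hearts it went from 1 to 0 with normexp, with trial 1 only and without slide 4, and to 2 (Aldh1a1 and Stra6) with the trial of the other label. Between the male trials it went from 1 to 0 with normexp. Leaving out 1 array gave 0 to 1 in females and 0 to 1 between the trials, and 1 in males, averaged over the sexes and between meth hearts. At unadjusted p, the methods' t-test called 1 member of 7 in females (Cyp26a1 paired, Cyp26b1 unpaired) and 1 (Aldh1a1, paired) or 2 (Aldh1a1 and Aldh1a3, unpaired) in males, and 0 after Benjamini-Hochberg. The replicate block, which drops female meth replicate 4, changed no other call of a member. The cause of these losses was not tested.

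Values that changed sign were those of Cyp26a1, Aldh1a2 and Cyp26b1, none of them called. The Cyp26a1 value in females was 0.15 with normexp. The Aldh1a2 value in females was 0.029 with normexp, 0.067 with a median shift, 0.027 with the trial of the other label, 0.020 with slide as a block and 0.066 without slide 4, and from -0.15 to 0.11 with 1 array left out. The Cyp26b1 value in males was 0.62 with trial 1 only and from -0.43 to 0.39 with 1 array left out, and that of Aldh1a2 from -0.029 to 0.12. Over all probes, 58 were higher and 157 lower in females and 227 higher and 87 lower in males, and with normexp 20 and 7 and 41 and 12. The female split became 73 against 51 with a median shift and 49 against 83 with quantile normalization. A median shift moved the median of all probes for the male minus female response to -0.12. Each member has 1 probe, so no alternative with other probes was run, Cyp26a1 has no value where all 15 arrays must be above background, and the block cannot be estimated between the sexes. Signal over background limits Cyp26a1, Crabp1 and Crabp2.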

Other observations

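Between the male trials, 2 of the 43 other pathway genes tested passed, both lower in trial 2, a share below the 5.31% of all probes that passed. Aldh1a7 had a trial 2 minus trial 1 log2 difference of -1.58 (limma adjusted p = 0.0398) and Adh5, the widely expressed alcohol dehydrogenase, one of -0.39 (limma adjusted p = 0.012). Trial and slide cannot be told apart here either.

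Aldh1a2 and Stra6, both higher in the female than in the male arrays by their means, had r = 0.749 over the 15 arrays and 0.583 for deviations from the group means. Lsr (r = 0.949) and Isg15 (r = 0.938), then Tpm3 (r = 0.931), Bex4 (r = 0.928) and Dok2 (r = 0.925), followed Aldh1a2 most closely. These are descriptions and no test was made on them.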
